A study of Mus musculus with 6 samples.

Results

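This account describes 10 genes of the ETS family of transcription factors in URE cells, a mouse leukaemia cell line: Spi1, Spib, Spic, Ets1, Ets2, Elf1, Elk3, Etv4, Etv5 and Etv6. Its genes were taken by name, each through the array probe sets whose platform annotation gives that symbol and no other. All 10 were found, on 11 probe sets, among 19938 genes measured. The control group (shControl, 3 arrays) carried a lentiviral hairpin against luciferase, a gene that mouse cells lack. The other group (shHLX, 3 arrays) carried, in the same vector, a hairpin directed at the homeobox factor gene Hlx. Both vectors also encode copGFP, and fluorescent cells were sorted in both groups. Both groups are of the same single cell line, and no untransduced cells and no cells with another level of PU.1 were measured alongside them.

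ETS factors share a DNA-binding domain that recognises a short core, GGAA, and differ in the bases they prefer around it, in their partners and in whether they activate or repress. PU.1, the product of Spi1, is required for the development of granulocytes, monocytes and B cells, and its dose matters: a distal enhancer called the upstream regulatory element (URE) sets much of it, and mice that lack this element develop acute myeloid leukaemia. URE cells take their name from that element, and both groups share that background. Of the relatives, Spi-B acts in B cells and plasmacytoid dendritic cells and Spi-C in red pulp macrophages. ETS1, ETS2, ETV4, ETV5 and the ternary complex factor ELK3 are regulated through the RAS and ERK pathway.

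The values are log2 signals after RMA, which corrects background, equalises the arrays and summarises probes, so a difference of 1 is a doubling of signal. The medians of the arrays over the 19938 genes lay between 7.33 and 7.44. Correlations between arrays were 0.998 to 0.999 within the groups and 0.994 to 0.996 between them. Hlx itself gave 10.21, 10.12 and 10.20 with the control hairpin and 10.08, 10.06 and 10.17 on the arrays labelled shHLX. The groups overlapped, and the difference of -0.07 passed neither limma (adjusted p = 0.479) nor a two-sided exact permutation of the arrays (p = 0.2, with 0.1 the smallest that 3 against 3 allow). The direction of every comparison below therefore rests on the labels.

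The markers of neutrophil and monocyte progenitors that define such a line were bright, with mean control signals of 14.00 for Elane, 13.66 for Prtn3, 13.58 for Ctsg and 10.75 for Kit. Ptprc (6.01), which encodes the leukocyte antigen CD45, and Cd34 (6.05) were dim. Of the 12 markers in that list, Cd33 and Itgam were higher and Ms4a3, Mpo and Kit lower on the arrays labelled shHLX. The median signal of the list was 10.45 to 10.49 in the controls and 9.84 to 10.11 on the arrays labelled shHLX. The part of this shift in the results below was not tested.

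Spi1 was bright, and its mean signal was the same to 2 decimals in both groups. Its values were 10.33, 10.28 and 10.42 in the controls and 10.32, 10.39 and 10.32 on the arrays labelled shHLX. The groups overlapped completely, with means of 10.34 ± 0.073 (SD, n = 3) and 10.34 ± 0.036 (SD, n = 3). The ratio was 1.00 (95% confidence interval 0.921 to 1.09), by limma (adjusted p = 0.999) and by an exact two-sided permutation test (p = 1). The interval bounds a change of the Spi1 signal as far as the spread between these arrays describes the error.

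The Spi1 signal lay at percentile 86.5 of the mean signals of all genes. Such a percentile places a probe set among all others and does not order transcript amounts between genes, because probes differ in how strongly they bind. With no cells of normal PU.1 dose measured here, these values do not show whether Spi1 mRNA is low in this line.

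The SPI relatives were dim. Spib gave 6.35, 6.52 and 6.47 in the controls and 6.46, 6.60 and 6.27 on the arrays labelled shHLX, at percentile 31.8. Spic gave 5.51, 5.70 and 5.72 against 5.57, 5.76 and 5.73, at percentile 16.7. The groups overlapped for both, and neither gene passed limma (adjusted p = 0.978 and 0.794). Whether either probe set lay above background is unknown, since no detection values were used. The intervals of the ratio ran from 0.865 to 1.15 for Spib and from 0.914 to 1.17 for Spic, and a ratio of dim signals understates a change in RNA.

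The cells in which Spib and Spic are known to act were checked through their markers. Of 10 B cell markers, Igll1, a surrogate light chain gene, rose from 9.00 to 11.21 and the other 9 did not pass. Vpreb1, also a surrogate light chain gene, went the other way, from 7.11 to 6.90, without overlap (limma adjusted p = 0.139). Cd79a, Ebf1 and Ms4a1 had control means of 5.44, 5.58 and 5.02. The median signal of that list was 6.47 to 6.62 in the controls and 6.46 to 6.56 on the arrays labelled shHLX. Of 10 red pulp macrophage markers, the heme oxygenase gene Hmox1 rose 1.74-fold and the iron exporter gene Slc40a1 1.25-fold, while 8 did not pass. Of these, Cd163 was lower on all 3 arrays labelled shHLX (change -0.16, adjusted p = 0.0809) and was called lower among genes above the 25th percentile of signal (adjusted p = 0.0435). Treml4 changed by -0.28 (adjusted p = 0.165) and was called lower without shHLX 1 (-0.39, adjusted p = 0.0351), and Adgre1 had means of 5.28 and 5.34. That list had medians of 6.26 to 6.36 and 6.15 to 6.29. Of 6 plasmacytoid dendritic cell markers, Lair1 rose 1.33-fold, Siglech had means of 6.57 and 6.55, and the list medians were 6.97 to 7.12 and 7.17 to 7.26. Tcf4 was bright and higher without overlap (means 10.21 and 10.34, limma adjusted p = 0.162). It was called higher among genes above the median of signal (adjusted p = 0.0433) and with an intensity trend (0.0354).

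**Figure D1:**
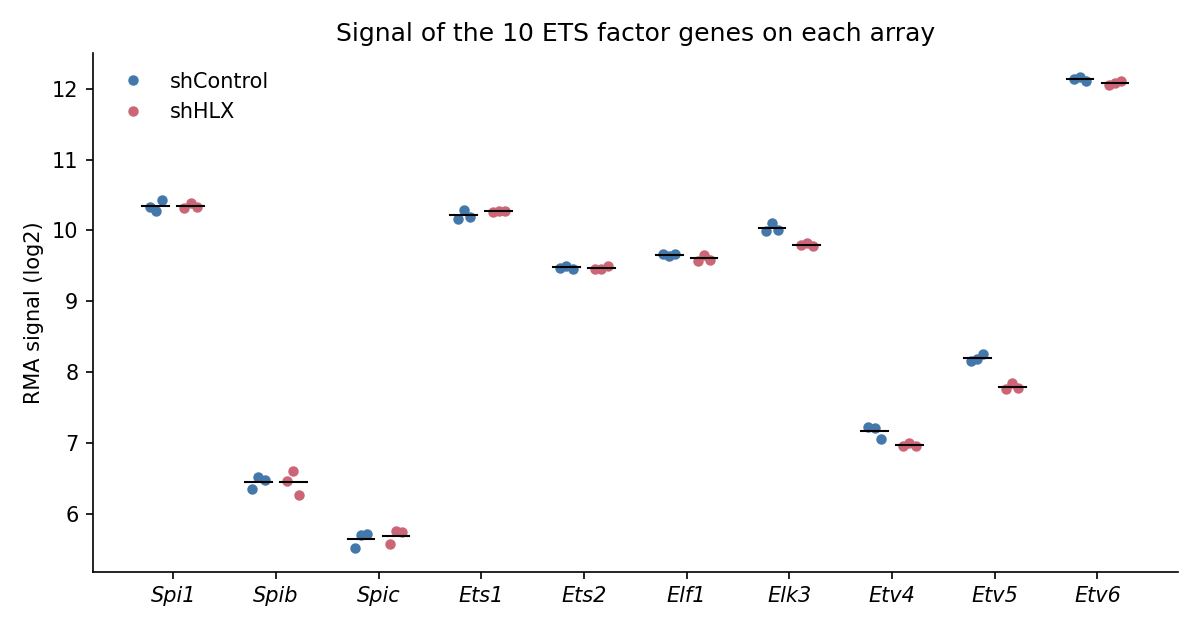
Each point is the RMA log2 signal of a gene on 1 array, blue for shControl and red for shHLX, and black lines are the group means (n = 3). Spi1 sits at 10.34 in both groups, Etv5, Elk3 and Etv4 are the genes whose groups do not overlap, and Spib and Spic lie near the bottom of the range; heights are not comparable between genes.

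Of the 10 genes, Etv5 and Elk3 were lower on the arrays labelled shHLX and 8 did not pass limma at an adjusted p under 0.05. None was called higher. Across all 19938 genes, 6.18% passed, 3.75% upwards and 2.43% downwards. In these bulk samples, fewer cells of a type and less RNA per cell cannot be told apart. At an unadjusted p under 0.05 the members were Etv5, Elk3 and Etv4. These 3 were also the members whose groups did not overlap, all with lower values on the arrays labelled shHLX, where 26.2% of all genes did not overlap (11.4% lower). The median change of the 10 was -0.03, against -0.01 for all genes, and their median absolute change was 0.05, against 0.07.

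The upstream sequences of the genes that passed, together with those of Etv1, the closest relative of Etv5 that moved most, are shown because these are the ETS genes on which the comparison turns. They are the 250 bases before each annotated start from RefSeq on GRCm38.p6, read 5′ to 3′ on the strand of the gene, with the GGAA core and its complement TTCC in capitals. The Etv5 windows are chr16:22438369-22438618 (start a) and chr16:22439571-22439820 (start b), both on the minus strand. The Elk3 window is chr10:93311160-93311409 on the minus strand, and those of Etv1 are chr12:38779832-38780081 (start a) and chr12:38783461-38783710 (start b) on the plus strand.
Etv5 start a: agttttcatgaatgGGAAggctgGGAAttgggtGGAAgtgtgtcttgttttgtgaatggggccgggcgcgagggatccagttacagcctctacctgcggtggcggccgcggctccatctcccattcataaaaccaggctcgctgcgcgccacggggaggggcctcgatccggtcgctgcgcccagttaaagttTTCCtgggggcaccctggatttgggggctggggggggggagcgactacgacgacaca
Etv5 start b: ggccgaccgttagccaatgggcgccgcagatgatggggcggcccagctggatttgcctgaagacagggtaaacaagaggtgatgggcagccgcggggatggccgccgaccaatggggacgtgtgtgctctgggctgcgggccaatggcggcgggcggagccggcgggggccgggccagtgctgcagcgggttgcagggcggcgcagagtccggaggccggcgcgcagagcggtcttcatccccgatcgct
Elk3: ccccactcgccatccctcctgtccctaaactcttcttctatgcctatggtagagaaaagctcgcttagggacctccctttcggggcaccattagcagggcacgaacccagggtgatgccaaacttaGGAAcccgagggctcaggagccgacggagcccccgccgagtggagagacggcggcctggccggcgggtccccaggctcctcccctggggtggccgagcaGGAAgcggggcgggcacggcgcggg
Etv1 start a: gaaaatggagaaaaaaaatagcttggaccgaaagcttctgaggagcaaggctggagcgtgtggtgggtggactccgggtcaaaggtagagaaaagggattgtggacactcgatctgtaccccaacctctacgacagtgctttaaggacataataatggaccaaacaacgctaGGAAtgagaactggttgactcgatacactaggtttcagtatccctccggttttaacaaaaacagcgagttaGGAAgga
Etv1 start b: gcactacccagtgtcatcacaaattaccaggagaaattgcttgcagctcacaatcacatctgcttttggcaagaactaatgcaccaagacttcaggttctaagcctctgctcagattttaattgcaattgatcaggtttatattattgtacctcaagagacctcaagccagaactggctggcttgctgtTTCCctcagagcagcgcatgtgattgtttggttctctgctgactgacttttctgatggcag

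The core occurred 4 times before Etv5 start a and 0 times before start b, 2 times before Elk3, and 2 times and 1 time before the starts of Etv1. Among 32851 such windows of all genes, 93.4% held at least 1 core on either strand, with a median of 3. The longer GAGGAA, which PU.1 favours and which contains the core, occurred in 23.3% of all windows. CCGGAA, of the kind that ETS1 and its close relatives favour, occurred in 12.0%, and the homeodomain-type TAATTA in 4.84%. None of these 3 was found in the 9 windows of the 7 members that the table held (Elf1, Elk3, Ets2, Etv5, Etv6, Spib and Spic) or in the 2 of Etv1. A match or its absence is a description of these letters in this window.

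Etv5 encodes an activator of the PEA3 group, which works downstream of growth factor signalling and in which ETV1 and ETV4 are the other members. Its brighter probe set (10363901) gave 8.16, 8.18 and 8.26 in the controls and 7.76, 7.84 and 7.77 on the arrays labelled shHLX. All 3 controls lay above all 3 others, by more than the spread within either group (SD 0.052 and 0.043, n = 3 each). The signal fell by 0.41 on the log2 scale (SE 0.05), to 0.753 of control (95% confidence interval 0.697 to 0.814, limma adjusted p = 0.00209).

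A second Etv5 probe set (10438626), annotated with the same transcript records, was dimmer. It gave 7.83, 7.60 and 7.90 in the controls and 7.34, 7.20 and 7.37 on the arrays labelled shHLX, again without overlap. Its change was -0.47 (SE 0.09), and with all probe sets tested together it passed limma (adjusted p = 0.0177), as did the first (adjusted p = 0.00223). The call of Etv5 held in all 6 fits that omit an array (adjusted p 0.0061 to 0.0156) and under all 11 other alternatives (adjusted p up to 0.0237). These fits read the brighter probe set, except the alternative that took the mean of both. Where either probe set lies on the genome was not checked, and the first stood for the gene only because it was brighter.

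Etv4, which encodes the founding PEA3 factor, pointed the same way without passing. Its values were 7.23, 7.21 and 7.05 in the controls and 6.95, 7.00 and 6.96 on the arrays labelled shHLX. The groups did not overlap, but the gap between them was smaller than the spread of the controls (SD 0.097). Its change of -0.19 had a 95% confidence interval of -0.32 to -0.06 (limma adjusted p = 0.114), and it passed under none of the alternatives run (adjusted p from 0.0624 to 0.276).

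Etv1, the remaining PEA3 gene and no member of the 10, went the other way. Its brighter probe set (10406934) gave 6.55, 6.69 and 6.72 in the controls and 7.64, 7.55 and 7.83 on the arrays labelled shHLX. It rose 2.03-fold (95% confidence interval 1.79 to 2.32, limma adjusted p = 0.000262), with a mean signal over all arrays at percentile 46.4, and kept its call in each of the 6 fits that omit an array (adjusted p up to 0.00293). A dimmer Etv1 probe set (10395457) gave 6.05, 6.45 and 6.36 in the controls and 6.84, 6.93 and 6.56 on the arrays labelled shHLX. It was also higher without overlap, but its change was smaller, 0.49 (SE 0.12), and did not pass with all probe sets tested (limma adjusted p = 0.0681). The mean of both probe sets changed by 0.76 (adjusted p = 0.000694). No coordinates were joined to the probe sets, so whether either lies within Etv1 was not checked. The first stood for the gene only because it was brighter. The size of the rise, and whether it passes with all probe sets tested, depend on which is read.

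Within each array, the signal of the brighter Etv1 probe set minus that of Etv5 was -1.61, -1.49 and -1.54 in the controls and -0.12, -0.29 and 0.06 in the other group. That difference changed by 1.43 on the log2 scale. An exact two-sided permutation test gave p = 0.1, the smallest that 3 arrays against 3 allow. This was 1 of 4 such within-array differences tested, chosen after the values were seen, and all 4 gave 0.1 (adjusted p = 0.1). Etv1 was already higher and Etv5 lower without overlap, so the p of their difference was fixed beforehand and adds no support.

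Elk3 encodes a ternary complex factor, which binds DNA beside the serum response factor and, without a growth signal, represses its targets. It gave 10.00, 10.10 and 10.01 in the controls and 9.80, 9.82 and 9.78 on the arrays labelled shHLX, with no overlap. The signal fell by 0.24 on the log2 scale (SE 0.05), to 0.849 of control (95% confidence interval 0.787 to 0.914, limma adjusted p = 0.0246). The call was not robust: omitting shHLX 1 (adjusted p = 0.0861), shHLX 2 (0.0626), shHLX 3 (0.0708), shControl 2 (0.077) or shControl 3 (0.0783) ended it, and omitting shControl 1 (0.0479) did not.

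Its relatives in the ternary complex group were not called in the main fit. Elk1 gave 9.47, 9.53 and 9.53 against 9.42, 9.52 and 9.47, which overlapped. Elk4 gave 9.90, 9.94 and 9.91 against 10.02, 10.03 and 10.07, higher on all 3 arrays labelled shHLX without passing limma (change 0.13, adjusted p = 0.139). It was called higher among genes above the median of signal (adjusted p = 0.0318) and with an intensity trend (0.0372). The within-array difference of Elk4 and Elk3 went from -0.12 ± 0.035 (SD, n = 3) to 0.24 ± 0.039 (SD, n = 3), with an exact permutation p of 0.1, the smallest possible. Elk4 was already higher and Elk3 lower without overlap, so this p was fixed beforehand and adds no support.

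**Figure D2:**
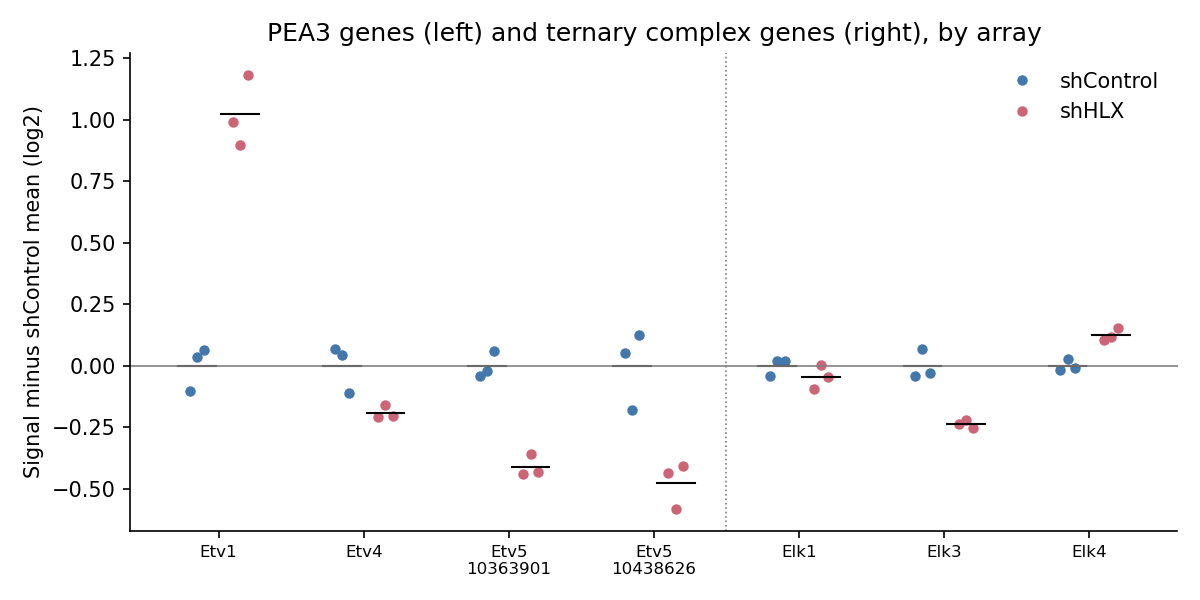
Each point is the log2 signal of a probe set on 1 array minus the mean of the 3 shControl arrays, blue for shControl and red for shHLX, with black lines at group means; the PEA3 genes stand left of the dotted line and the ternary complex genes right. Both Etv5 probe sets lie 0.41 and 0.47 lower in shHLX and the brighter Etv1 probe set lies 1.02 higher, while Elk3 and Elk4 shift by -0.24 and 0.13.

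The other members differed by less than their error allowed to be called. Ets1, which encodes a factor best known from lymphocytes, gave 10.17, 10.29 and 10.19 in the controls and 10.26, 10.28 and 10.28 on the arrays labelled shHLX, and overlapped (ratio 1.04, 95% confidence interval 0.964 to 1.12, limma adjusted p = 0.563). Ets2, its close relative, gave 9.48, 9.50 and 9.46 against 9.46, 9.45 and 9.50 (0.994, 0.931 to 1.06, adjusted p = 0.937). Elf1, a factor of the ELF group, gave 9.66, 9.64 and 9.67 against 9.57, 9.66 and 9.59 (0.964, 0.899 to 1.03, adjusted p = 0.563). Etv6 encodes the repressor TEL, a frequent partner in leukaemia fusions. It gave 12.14, 12.17 and 12.10 against 12.05, 12.08 and 12.12 (0.963, 0.898 to 1.03, adjusted p = 0.552), at percentile 98.2. Each of these 4 intervals excludes a change of signal as large as that of Etv5.

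Ets1 and Ets2 each lie next to a gene of the ERG group in the mouse RefSeq gene order, Ets1 beside Fli1 and Ets2 beside Erg. Fli1, which encodes a factor of megakaryocytes and stem cells, gave 11.56, 11.57 and 11.59 in the controls and 11.44, 11.52 and 11.41 on the arrays labelled shHLX. It was lower on all 3 arrays, but did not pass limma (change -0.12, adjusted p = 0.226). With an intensity trend in the fit it was called lower (adjusted p = 0.0335). Erg was dim and overlapped (means 6.36 and 6.27, adjusted p = 0.502).

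Of 25 measured ETS genes in all, the 10 members included, Etv1 was called higher, by its brighter probe set, and Etv5 and Elk3 lower. These are 4% and 8% of the family, against 3.75% called higher and 2.43% called lower among all genes. By point estimate 17 of the 25 were lower, where the median change of all genes was itself negative (-0.01). The groups did not overlap for 6 lower genes (Etv5, Elk3, Etv4, Etv3, Fli1 and Elf2) and 2 higher ones (Etv1 and Elk4). Those are 24% and 8% of the family, against 11.4% and 14.7% of all genes. Etv3, a repressor gene, changed by -0.17 (adjusted p = 0.0788). It was called lower under some alternatives, such as among genes above the 25th percentile of signal (adjusted p = 0.0434) and with array weights (0.0427). No fit that omits an array called Etv3. Elf4 (change -0.003) and Gabpa (0.06) did not pass. The median change of the 15 genes outside the 10 was -0.05.

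**Figure D3:**
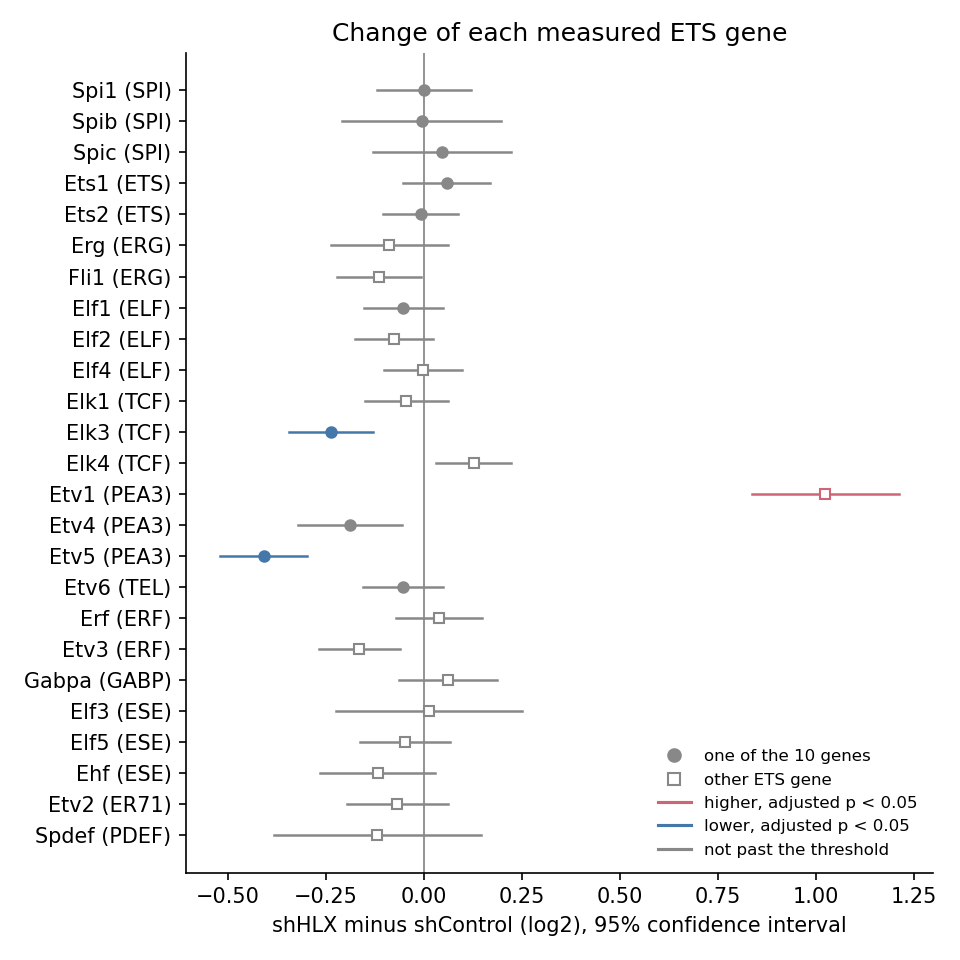
Points are the log2 change from shControl to shHLX of each measured ETS gene with limma's 95% confidence interval (3 arrays against 3), filled circles for the 10 genes and open squares for the other 15, grouped by subfamily. Etv1, by its brighter probe set, stands alone at 1.02, Etv5 and Elk3 lie at -0.41 and -0.24, and the intervals of Spi1, Ets1, Ets2, Elf1 and Etv6 all include 0.

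The Spi1 signal did not differ beyond its error, and some genes that PU.1 is known to activate in myeloid cells did. Of 25 such genes, 5 rose and 2 fell and 18 did not pass, against 6.18% called among all genes; the median change of the list was -0.005, against -0.01. Itgam, which encodes the integrin CD11b, rose 1.68-fold (95% confidence interval 1.50 to 1.88, limma adjusted p = 0.000615), from 8.01, 8.07 and 7.89 to 8.82, 8.62 and 8.78. Tlr4, the endotoxin receptor gene, rose 1.38-fold and the lysozyme gene Lyz2 1.31-fold.

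The falls were in Csf2ra and Ncf1. Csf2ra, which encodes a receptor chain for GM-CSF, gave 11.40, 11.37 and 11.36 in the controls and 10.96, 10.96 and 10.94 on the arrays labelled shHLX, a change of -0.42 (limma adjusted p = 0.000654). Ncf1, an oxidase subunit gene, fell by 0.37 on the log2 scale (adjusted p = 0.00294). Itgam, Tlr4, Lyz2, Csf2ra and Ncf1 stayed called in all 6 fits that omit an array.

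The oxidase gene Cybb and the integrin gene Itgb2 also rose, 1.61-fold and 1.16-fold (adjusted p = 0.0426 and 0.0291). Cybb was lost on omission of any shControl array or of shHLX 3 (adjusted p up to 0.119), and Itgb2 on omission of any array but shHLX 3 (up to 0.119), so that 3 or 4 genes of the list rose in the fits that omit an array. The receptor genes Csf1r (change -0.12, adjusted p = 0.356) and Csf3r (-0.08, adjusted p = 0.509), textbook targets of PU.1, did not pass. Csf1r was dim, with means of 6.36 and 6.24.

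Among 19 measured partners and regulators of PU.1, 3 fell and 1 rose, against 2.43% called lower and 3.75% called higher among all genes. The largest change was that of Satb1, which encodes a chromatin organiser known to bind at the upstream regulatory element of Spi1. The state of that element in these cells was not examined, and a link between Satb1 and Spi1 was not tested. Satb1 gave 8.00, 8.09 and 8.11 in the controls and 7.01, 7.12 and 7.12 on the arrays labelled shHLX, to 0.508 of control (95% confidence interval 0.466 to 0.553, limma adjusted p = 4.29e-05), with no overlap.

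Cebpe, a factor of late granulocyte maturation, fell by 0.73 on the log2 scale (adjusted p = 0.000653), and Gfi1, whose product antagonises PU.1, fell by 0.26 (adjusted p = 0.0101). Satb1 and Cebpe stayed called in all 6 fits that omit an array, and Gfi1 in all but that without shControl 3 (adjusted p = 0.0555). Rb1 rose by a change of 0.21 at the edge of the threshold (adjusted p = 0.0497) and did not stay called in any of the 6 fits that omit an array (up to 0.153). The interferon regulatory factor genes Irf8 (-0.13, adjusted p = 0.354) and Irf4 (0.05, adjusted p = 0.835), whose products bind DNA together with PU.1, and Cebpa (0.03, adjusted p = 0.76), Jun (-0.007, adjusted p = 0.967) and Gata1 (-0.07, adjusted p = 0.549) did not pass. Gata2 was lower (-0.33, adjusted p = 0.0824) and Zeb2 (0.16, 0.069) and Runx1 (0.13, 0.128) higher, each without overlap and without passing. Gata2 was called lower with arrays centred on their medians (limma adjusted p = 0.0208). Zeb2 was called higher among genes above the 25th percentile of signal (0.0348), and Runx1 among those above the median (0.0287).

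**Figure D4:**
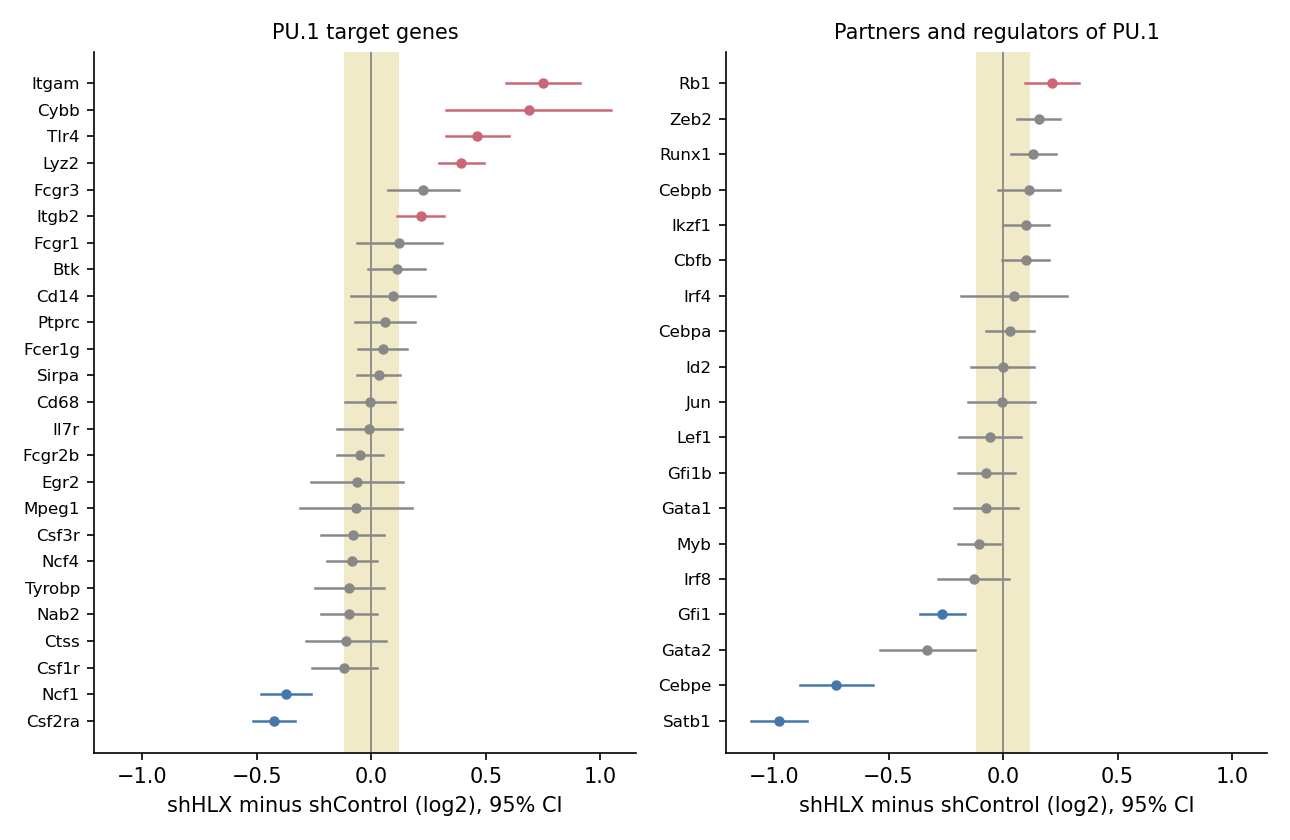
Points are log2 changes from shControl to shHLX with limma's 95% confidence interval for 25 target genes of PU.1 (left) and 19 partners and regulators (right), red where higher and blue where lower at an adjusted p under 0.05, and the shaded band is the interval of Spi1 itself, -0.12 to 0.12. Itgam, Cybb, Tlr4 and Lyz2 lie to the right of the band and Csf2ra, Ncf1, Satb1, Cebpe and Gfi1 to the left.

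Of 8 neighbours of Spi1 on its chromosome, Slc39a13 and Mybpc3, which flank it, changed by -0.06 and -0.14 and did not pass (adjusted p = 0.576 and 0.32). Madd was the only one called, higher by 0.21 (adjusted p = 0.0264), and did not stay called in any fit that omits an array (adjusted p 0.0565 to 0.127).

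The ERK pathway acts on PEA3 and ternary complex factors, and called genes of its list lay in both directions. Against 3.75% called higher and 2.43% called lower among all genes, of 16 genes of the pathway and its targets the phosphatase gene Dusp6 (1.26-fold) and Spry1 (1.25-fold), which encode feedback inhibitors, rose, and the early response gene Egr1 fell by 1.10 on the log2 scale (limma adjusted p = 0.004, 0.00739 and 1.37e-05). The kinase genes Map2k1 (0.08) and Map2k2 (0.03) did not pass, nor did Spry2 (0.17, adjusted p = 0.121) or Spry4 (0.01, adjusted p = 0.948). Map2k1 and Spry2 were higher without overlap. Map2k1 was called higher without variance moderation (adjusted p = 0.0202) and Spry2 among genes above the median of signal (limma adjusted p = 0.0317). Of the 16 genes, 5 were higher and 2 lower without overlap, against 14.7% and 11.4% of all genes.

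Of 15 genes of the serum response factor and its ternary complex targets, Egr1 and Fosb (-0.40, adjusted p = 0.0128) fell and 0 rose, against 2.43% called lower and 3.75% called higher among all genes. The median change of the list was -0.07, against -0.01. Fosb was lost without shControl 3 (adjusted p = 0.0663). Fos changed by -0.20 (adjusted p = 0.116), Vcl, which encodes a protein of cell adhesions, by -0.20 (adjusted p = 0.062), and Srf itself by 0.002 (adjusted p = 0.984). Some alternatives called more of the list. With an intensity trend Vcl was called lower (limma adjusted p = 0.0061) and Mrtfb higher (0.0357). Fos was called lower among genes above the median of signal (0.0321).

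Endothelial, T cell and erythroid markers were read because ETS factors also act in those cells. Of 11 endothelial markers, Pecam1 rose 3.65-fold and Cdh5 fell by 2.68 on the log2 scale, and 9 did not pass, with median signals of 6.69 to 6.79 in the controls and 6.54 to 6.66 on the arrays labelled shHLX. Among those that did not pass, Flt1 was bright and lower without overlap (means 11.61 and 11.42, adjusted p = 0.0708). It was called lower among genes above the 25th percentile of signal (adjusted p = 0.0412). Of 10 T cell markers, Cd28 rose 1.25-fold and stayed called, of the 6 fits that omit an array, in those without shControl 3 or shHLX 1 (adjusted p up to 0.108 in the others). Of the defining T cell genes, Cd3g and Cd3d were dim in the controls (4.82 and 5.85), while Cd3e had a control mean of 7.73. The list medians were 6.60 to 6.83 in the controls and 6.64 to 6.74 on the arrays labelled shHLX. Of 6 erythroid markers, Tfrc rose 1.28-fold and 5 did not pass. Epor was lower on all 3 arrays labelled shHLX (change -0.20, adjusted p = 0.0695) and was called lower among genes above the 25th percentile of signal (adjusted p = 0.0414), and Alas2 changed by -0.14 (adjusted p = 0.339). The list medians were 7.25 to 7.39 and 7.16 to 7.25. What part these markers have in the changes of the ETS genes was not tested.

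The genes whose pattern over the 6 arrays was most like that of Spi1 were Blk (Pearson r = 0.994), Fastkd2 (0.991) and Tmem29 (0.98). These patterns follow differences within the groups, since Spi1 has none between them: shControl 3 was the highest array for all 4 genes. Blk, a kinase gene of B cells, was dim, at 6.67, 6.55 and 6.87 in the controls and 6.65, 6.81 and 6.68 on the arrays labelled shHLX. For Etv5 they were Dok2 (0.999), Mad2l2 (0.998) and Tmem106c (0.998). All 3 were lower on every array labelled shHLX than on any control, as Etv5 was, so these correlations mostly restate the difference between the groups. They are descriptions over 6 arrays that share the same line and processing, picked as the highest among all genes.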

How the data were processed

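Each of 6 Affymetrix arrays measured amplified RNA of sorted URE cells, 3 per group. The authors deposited a log2 signal per array for each of 35556 probe sets, made with RMA and Affymetrix Power Tools 1.178 per the submitters' processing notes. A genome build, not given in the sources used here, was not assumed, and no gene coordinates were joined to the probe sets. Of the probe sets, 21789 had 1 symbol, 1621 several and 12146 none listed; only the first entered the main test, and the brightest stood for a gene that had more than 1. Over 19938 genes the groups were tested with lmFit and eBayes of limma 3.58.1 (R 4.3.3; no covariates, two-sided, Benjamini-Hochberg over all genes, threshold 0.05). The number of arrays limits precision, and the median gene had an SD of 0.0728 between replicates. Nothing says that replicates were separate cultures, so p-values measure only how far these samples spread, which may be technical error.

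The members and the 14 gene lists were chosen with earlier results of these data known. Genes were named by a rule: all members, and of each list those past the threshold and otherwise a few with the smallest p; others named were chosen after their values were seen, as were the within-array differences. The rule left predicted and small RNA genes out of the genes most like Spi1 and Etv5. The fit was tested on simulated data. Alternatives were another normalization, centring, filters on dim genes, variance models, array weights, probe set choice, a block for the replicate number, and omission of each array. Promoter windows are RefSeq's (GRCm38.p6), matched by symbol for 7 of 10 members. Plots were made in Python 3.11.15 with matplotlib 3.10.9.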

Additional observations from a re-analysis of the deposited data

How the results depend on the processing

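Etv5 kept its direction and its call under every alternative run, and Elk3 its direction. The number of the 10 genes called was 2 and became 1 without variance moderation and with the replicate number as a block (replicate block), in both cases because Elk3 was lost (adjusted p = 0.0563 and 0.0691), and lay between 1 and 2 when an array was left out. The count over all genes, 1233, was 2064 among genes above the median of signal, 2261 with an intensity trend, 800 with the replicate block, and 698 to 901 when an array was left out, with fewer samples in the fit. The numbers do not pair the arrays: deviations of equally numbered arrays correlated at -0.17, 0.13 and -0.15.

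Changes close to 0 took either sign and were never called. Spi1 was at -0.029 after a second quantile normalization and -0.036 with array weights, and between -0.032 and 0.040 with an array left out. Spib was at 0.033, 0.013 and 0.0041 after the second quantile normalization, with arrays centred on their medians and with array weights, and between -0.083 and 0.080 with an array left out. Spic was at -0.025 with array weights and between -0.020 and 0.11 with an array left out. Ets2 was at 0.011 with centred arrays and between -0.024 and 0.0012 with an array left out. Filters on dim signal removed Spic (25th percentile) and Spib, Spic and Etv4 (median), so these give no value there. The dim signal of Spib and Spic, with no detection values, limits what can be read from either gene.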
